A study of Mus musculus with 8 samples.

Results

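Fgf21, Gdf15 and Adm2 encode 3 secreted factors that cells release under stress, and their transcripts were compared here between the brains of Pus1 mutant and wild-type mice. They were chosen by gene symbol, with the mutant over wild-type ratios of these same arrays already known. Each was measured by 1 probe spotted once per array, so 3 of 55681 probes are described, and 3 of the 20887 genes named on the array. The mutant mice were homozygous for a mutated Pus1 gene, called a knockout in the title of the series, and the Pus1 product is pseudouridine synthase 1, which isomerises certain uridines of tRNAs and other RNAs. There were 4 mutants and 4 wild-type mice, 2 females and 2 males of each genotype, aged 14 to 16 weeks, and all came from lines crossed to C57BL/6J over 5 generations. RNA came from a frozen cross section of whole brain, 200 ng per mouse, and a pair, as used below, is the mutant and the wild-type mouse that shared an array, an animal number and a sex. Females made up pairs 1 and 2, males pairs 3 and 4, and the mutant was labelled with Cy5 in pairs 1 and 3 and with Cy3 in pairs 2 and 4.

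FGF21 is a hormone of the fibroblast growth factor family that signals through FGF receptors with the co-receptor beta-Klotho. GDF15 is a distant member of the transforming growth factor beta family and acts on the hindbrain receptor GFRAL, which signals through RET. Adrenomedullin 2, the product of Adm2, belongs to the calcitonin peptide family and acts on the receptor encoded by Calcrl together with RAMP proteins. In other tissues and cells all 3 genes are known to be induced through the integrated stress response, in which phosphorylated eIF2alpha favours translation of the transcription factor ATF4, and mitochondrial dysfunction is a known trigger of FGF21 and GDF15 release.

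ATF4 binds composite C/EBP-ATF response elements with the core TGATGNAA. The 250 bases before the annotated start of each gene are shown because the 3 transcripts were higher together, with any match to that core in capitals (RefSeq, GRCm38.p6, each written 5′ to 3′ on the gene's strand, the last base next to the start). The windows are chr7:45615491-45615740 on the minus strand for Fgf21, chr8:70632457-70632706 on the minus strand for Gdf15 and chr15:89322470-89322719 on the plus strand for Adm2.
Fgf21: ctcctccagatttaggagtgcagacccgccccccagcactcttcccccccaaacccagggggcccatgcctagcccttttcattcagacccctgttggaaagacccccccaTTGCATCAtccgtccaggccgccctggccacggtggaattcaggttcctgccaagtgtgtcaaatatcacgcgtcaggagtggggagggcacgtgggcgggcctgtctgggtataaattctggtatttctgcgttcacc
Gdf15: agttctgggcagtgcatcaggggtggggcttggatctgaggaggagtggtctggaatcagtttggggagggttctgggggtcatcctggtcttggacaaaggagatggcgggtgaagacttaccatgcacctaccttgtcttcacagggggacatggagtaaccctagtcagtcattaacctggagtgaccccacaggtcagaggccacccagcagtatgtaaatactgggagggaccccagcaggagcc
Adm2: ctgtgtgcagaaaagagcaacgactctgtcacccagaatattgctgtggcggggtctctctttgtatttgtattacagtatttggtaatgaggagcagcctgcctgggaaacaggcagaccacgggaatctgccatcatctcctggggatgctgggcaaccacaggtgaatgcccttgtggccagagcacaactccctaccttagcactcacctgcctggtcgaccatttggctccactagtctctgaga

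The windows searched held 300 bases, these 250 and the first 50 after the start, on both strands. Fgf21 had 1 match to the core, on the opposite strand, beginning 139 bases before the start. These letters did not occur in the window of Adm2 or in either of the 2 windows annotated for Gdf15. They occurred in 3.97% of 32851 promoter windows of all genes and in 8 of 31 windows (25.8%) of the listed ATF4 targets. The cAMP response element TGACGTCA, whose letters differ from the core so that matches to both can overlap only in part, occurred in 1.79% of all windows. The direct repeat that PPAR alpha can bind occurred in 0.0396%. Neither was found in the windows of the 3 genes. A match is a description of the letters and not evidence of binding.

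The targeted gene was checked first. Pus1, at the 1 probe that measured it, had log2 levels of 7.09, 7.16, 6.75 and 7.04 in mutants 1 to 4 and of 9.16, 10.10, 9.36 and 9.79 in wild-type mice 1 to 4. Within pairs Pus1 fell by 2.59 (log2 ratio, SD 0.38 over 4 pairs, limma adjusted p = 0.0364), and the fall passed the test in 7 of 13 alternatives, with adjusted p from 0.000391 to 1. It did not pass without pair 1 (0.893) or without pair 3 (1). The sex labels held as well: the Xist spot exceeded background in the 4 females alone, and the spots of the Y-linked genes Uty, Eif2s3y and Ddx3y in the 4 males alone. Between 56.3% and 67.7% of probes were well above background in a sample. The SD of the log2 ratios over probes was 0.279, 0.633, 0.395 and 0.329 in pairs 1 to 4, widest in pair 2. The 9 listed markers of neurons, astrocytes and oligodendrocytes were well above background in all 8 samples.

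All 3 spots were dim. The brightness of the Fgf21 spot over its local background was 3.16, 4.21, 2.32 and 4.40 in mutants 1 to 4. In wild-type mice 1 to 4 it was 1.85, 1.44, 1.00 and 1.25. The scanner software marked the spot as well above background in 4 of 4 mutants and in 1 wild-type mouse, that of pair 1. In wild-type mouse 3 the spot was exactly as bright as its background, at 59 intensity units. For Gdf15 the same quotient was 3.42, 2.70, 5.24 and 3.60 in mutants 1 to 4. It was 1.80, 1.15, 1.76 and 1.70 in wild-type mice 1 to 4, and the spot was well above background in 4 mutants and 3 wild-type mice, all but mouse 2. For Adm2 the quotient was 2.88, 2.97, 4.14 and 2.83 in mutants 1 to 4. It was 1.75, 1.12, 1.52 and 1.28 in wild-type mice 1 to 4.

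The Adm2 spot was well above background in 4 mutants and 2 wild-type mice. Those 2, in pairs 1 and 3, carried Cy3, and the 2 that were not carried Cy5, whose local background was 144.5 to 162 intensity units at these 3 spots in wild type against 47 to 66 in Cy3. Of the 12 mutant spots all were well above background in both dyes. No spot of the 3 genes was saturated or marked as an outlier.

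**Figure D1:**
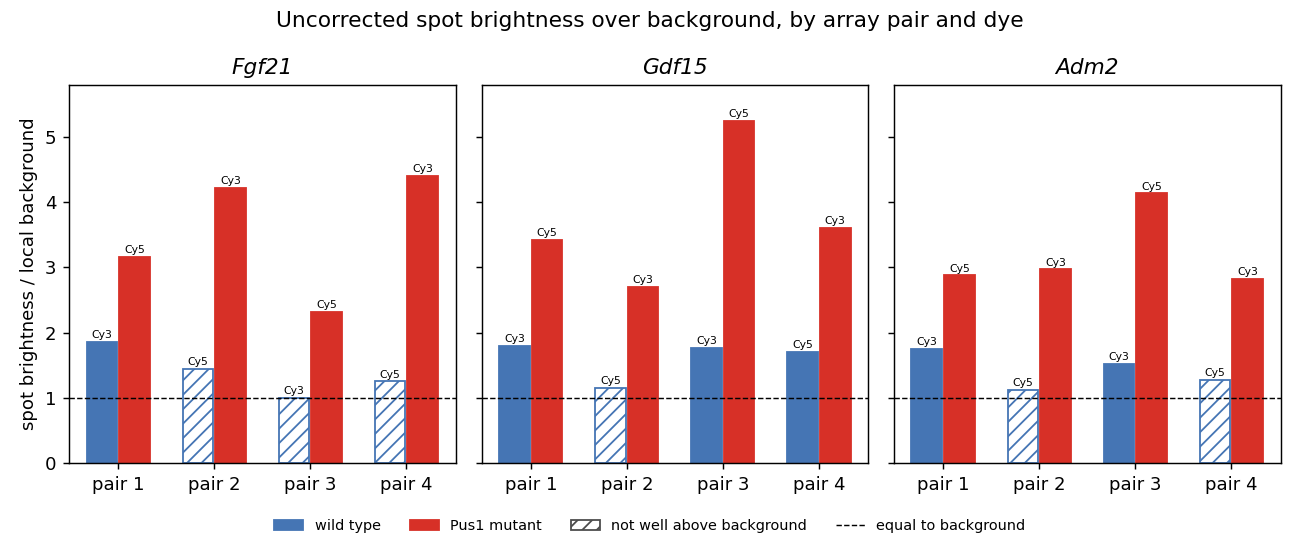
Uncorrected brightness of the single spot of each gene divided by its local background (vertical axis, a ratio with no unit) in pairs 1 to 4, wild type in blue and mutant in red, with the dye above each bar and the dashed line at a spot as bright as its background. Hatched bars were not well above background: Fgf21 in wild-type mice 2, 3 and 4, Gdf15 in wild-type mouse 2 and Adm2 in wild-type mice 2 and 4.

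After background correction and normalization, each of the 3 transcripts had a higher level in every mutant than in any wild-type mouse. The log2 level of Fgf21 was 8.26, 8.40, 7.67 and 8.30 in mutants 1 to 4. In wild-type mice 1 to 4 it was 7.22, 6.89, 6.34 and 6.50. The group means were 8.16 ± 0.33 and 6.74 ± 0.40 (SD, n = 4 each), and the lowest mutant lay 0.45 above the highest wild-type mouse. Mutant 3 was the low mutant and wild-type mouse 3 the lowest of all 8, so pair 3 was low in both genotypes.

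The log2 level of Gdf15 was 8.43, 7.66, 8.97 and 8.11 in mutants 1 to 4. In wild-type mice 1 to 4 it was 7.12, 6.51, 7.22 and 7.10. Here pair 2 was the low pair in both genotypes and mutant 3 the highest sample, the reverse of its place for Fgf21. The means were 8.29 ± 0.55 and 6.99 ± 0.32, and the groups were 0.44 apart at their nearest.

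The log2 level of Adm2 was 8.18, 8.01, 8.68 and 7.92 in mutants 1 to 4. In wild-type mice 1 to 4 it was 7.06, 6.44, 7.07 and 6.63. The means were 8.20 ± 0.34 and 6.80 ± 0.31, and the gap of 0.85 between the groups was the widest of the 3. Among all tested probes, 0.63% had every mutant level above every wild-type level. That contrast was in view when the genes were chosen, so nothing is read from their 3 of 3. Because the RNA came from whole sections, more cells that express a gene and more RNA per cell cannot be told apart in any of these values.

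**Figure D2:**
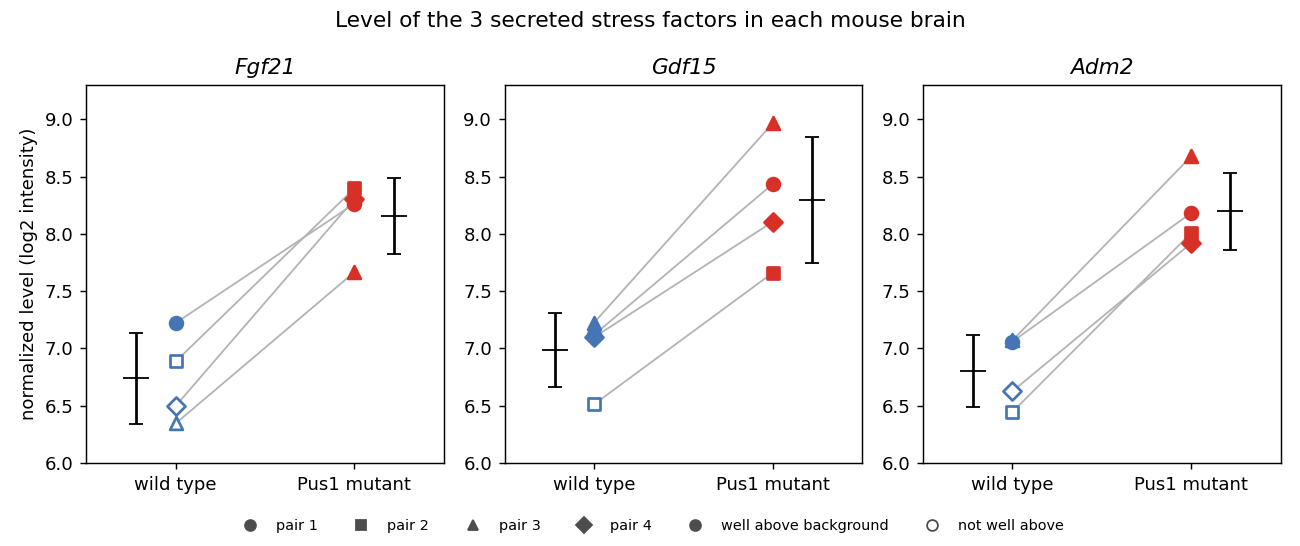
Normalized log2 intensity of Fgf21, Gdf15 and Adm2 (vertical axis) in the 4 wild-type and 4 mutant mice, with grey lines joining mice of 1 array, open symbols for spots not well above background and bars for mean ± SD (n = 4). In each panel the groups do not overlap, with gaps of 0.45, 0.44 and 0.85.

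Within pairs, the log2 mutant over wild-type ratio of Fgf21 was 1.04, 1.51, 1.32 and 1.80 in pairs 1 to 4. Its mean was 1.42 ± 0.32 (SD, n = 4 pairs), 2.68-fold. The ratio of Gdf15 was 1.32, 1.15, 1.74 and 1.01 in pairs 1 to 4, with a mean of 1.30 ± 0.32, 2.47-fold. Pair 4, highest for Fgf21, was lowest for Gdf15. The ratio of Adm2 was 1.12, 1.56, 1.61 and 1.29 in pairs 1 to 4, with a mean of 1.40 ± 0.23, 2.63-fold.

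At this scaling every pair was thus above 2-fold for each gene, while with no background correction pair 1 of Fgf21 (0.91) and pair 4 of Gdf15 (0.91) were below, as was pair 4 of Gdf15 with median centring (0.94). Of 33307 tested probes, 0.198% had a mean log2 ratio above 1, and 6.05% were higher in the mutant in all 4 pairs. Nothing is read from the place of the 3 genes among them, since this contrast was known when they were chosen. Fgf21 and Adm2, well above background in 1 and 2 wild-type mice, also entered the tested probes through the mutants alone. The SD over pairs was 0.229 for Adm2, against a median of 0.269 over the 1000 tested probes nearest to it in brightness. It was 0.321 against 0.262 for Fgf21 and 0.318 against 0.271 for Gdf15, and the 3 exceeded 38.9%, 63.4% and 61.6% of those probes. In brightness the 3 probes lay at the 16.3, 17.7 and 21.6 percentiles of the tested probes for Fgf21, Adm2 and Gdf15.

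The ratios were split by dye orientation and by sex. They are the ratios per array that were known when the genes were chosen, so these splits are not independent of that choice. With the mutant in Cy5 (pairs 1 and 3) Fgf21 averaged 1.18, and with the mutant in Cy3 (pairs 2 and 4) it averaged 1.66. Gdf15 leaned the other way, with 1.53 and 1.08, and Adm2 had 1.37 and 1.43. The dye term of the limma fit, the mean shift of Cy5 over Cy3, was -0.24 for Fgf21 (adjusted p = 0.435), 0.23 for Gdf15 (0.457) and -0.03 for Adm2 (0.930). None passed.

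Between the sexes, the mean ratio of Fgf21 was 1.28 in the female pairs and 1.56 in the male pairs. That of Gdf15 was 1.23 and 1.38, and that of Adm2 1.34 and 1.45. The difference, female minus male, was -0.29 ± 0.26 for Fgf21 (SE of the limma fit), -0.14 ± 0.28 for Gdf15 and -0.11 ± 0.30 for Adm2, with adjusted p of 0.993, 0.994 and 0.995. The term for a genotype difference between sexes had 1 residual degree of freedom besides the prior, and it passed at 0 of the 33307 probes, with 925 at an unadjusted p under 0.05.

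The level averaged over both mice of a pair was compared between the 2 female and the 2 male arrays in the same way. Fgf21 averaged 7.69 in females and 7.20 in males, a difference of 0.49, with limma adjusted p = 1. Gdf15 averaged 7.43 and 7.85, a difference of -0.42, and Adm2 7.42 and 7.57, a difference of -0.15, each with limma adjusted p = 1. No probe passed this test, with 160 at an unadjusted p under 0.05, and the comparison rests on 2 arrays per sex. With no filter 0 probes passed as well, although the Xist and Y-linked spots exceeded background in females or in males alone. The test could thus miss a full difference between the sexes, and nothing is concluded from it about the 3 genes.

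The size of the ratios depended on how the dim wild-type spots were handled, and their direction did not. With the scanner software's own background subtraction and dye correction, the log2 ratio of Fgf21 was 1.61, 2.81, 3.67 and 3.90 in pairs 1 to 4, with a mean of 3.00 ± 1.04, 7.98-fold. Gdf15 had 2.34, 3.71, 2.47 and 2.00, with a mean of 2.63 ± 0.75, 6.19-fold. Adm2 had 2.21, 3.04, 2.42 and 2.47, with a mean of 2.53 ± 0.36, 5.79-fold. The highest Gdf15 ratio came from pair 2 and the highest Fgf21 ratios from pairs 3 and 4, pairs whose wild-type spot was not well above background.

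In the authors' deposited table the mutant minus wild-type values of Adm2 were 2.51, 2.71, 2.55 and 2.31 in pairs 1 to 4. Those of Fgf21 were 1.82, 2.53, 3.69 and 3.58, and those of Gdf15 2.66, 3.99, 2.59 and 1.87. Adm2 had the narrowest range of the 3 in that table. With no background correction the mean ratios were 1.27 for Fgf21, 1.23 for Gdf15 and 1.27 for Adm2, the smallest of the 6 scalings, and with a normexp offset of 10 they were 1.95, 1.71 and 1.87. The offset of 50 added to each intensity draws the ratio of a dim spot toward 0, so the folds of 2.47 to 2.68 depend on that choice. Over all 13 alternatives the log2 ratio ranged from 1.27 to 3.00 for Fgf21, from 1.20 to 2.78 for Gdf15 and from 1.27 to 2.53 for Adm2. Where a pair was left out, the value is the limma estimate with its dye term and not a plain mean.

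**Figure D3:**
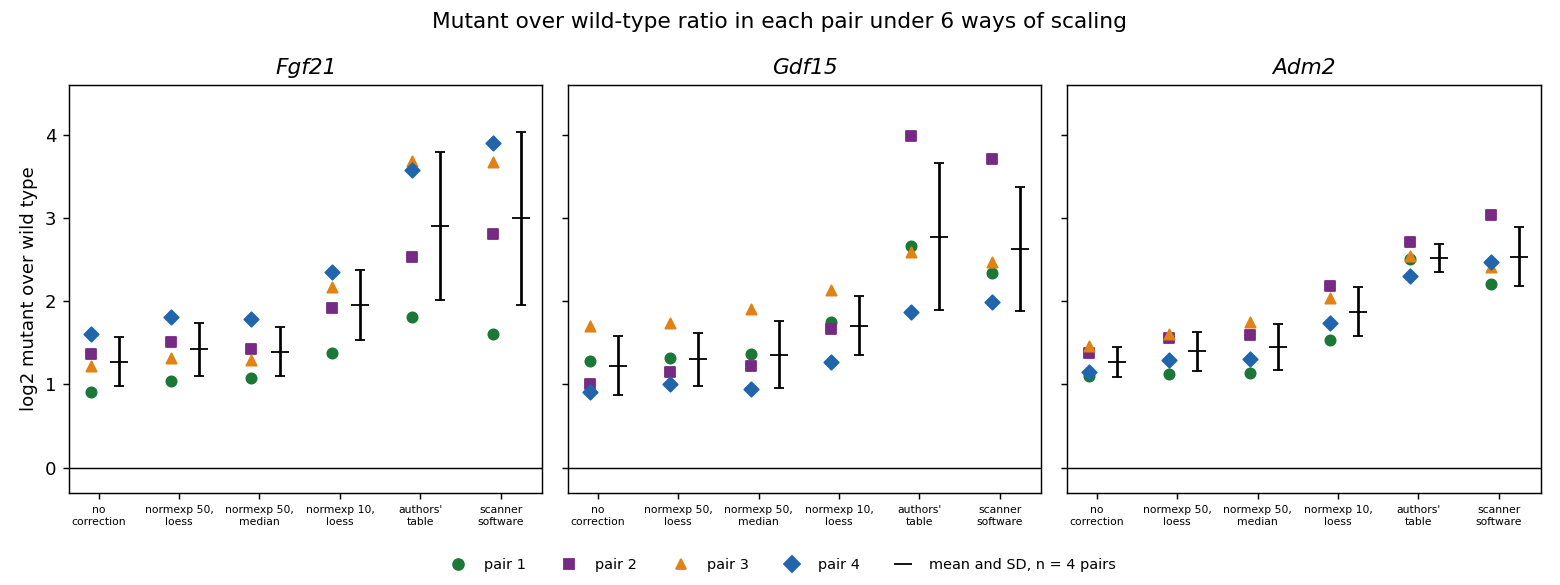
Log2 mutant over wild-type ratio (vertical axis) of the 3 genes in pairs 1 to 4 under 6 scalings (horizontal axis), with black bars for mean ± SD (n = 4 pairs). Every point lies above 0, and means run from 1.23 with no background correction to 3.00 with the scanner software's ratio.

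The receptors of the 3 factors were examined next, as the genes through which the ligands would act. Of 10 listed genes, 7 were well above background often enough to be tested. In limma 0 of the 7 passed, with 0 at an unadjusted p under 0.05 and a lowest adjusted p of 0.811, and 0.00901% of all tested probes passed. Klb, which encodes beta-Klotho, Gfral and Calcrl were the 3 that were not tested. Each was well above background in 0 of 8 samples, as were 26.4% of all probes, so neither genotype gave a level for them, and a low count of expressing cells in a whole section was not tested.

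Among the FGF receptor genes, Fgfr1 had log2 mutant over wild-type ratios of -0.10, 1.28, -0.07 and 0.41 in pairs 1 to 4. Its mean was 0.38 ± 0.64, with 0.20 and 0.21 at 2 other probes. Fgfr2 had a mean of 0.12 ± 0.16 and Fgfr3 one of 0.11 ± 0.40. Ret, the signalling partner of GFRAL, had -0.69, 3.58, -0.13 and 0.32, with a mean of 0.77 ± 1.92 set by pair 2. Without pair 2 Ret had a limma estimate, dye term included, of -0.045. It passed when pair 4 was left out (log2 1.59, limma adjusted p = 0.0192), a fit in which pair 2 alone stands for its dye orientation and in which 933 probes passed, and over the other alternatives no receptor gene passed.

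The RAMP genes encode the proteins that set which peptide the Calcrl receptor prefers. Ramp1 had a mean ratio of 0.05 ± 0.29, with 0.03 and -0.21 at 2 other probes, and Ramp2 one of 0.11 ± 0.25. Ramp3 had 1.73, -1.88, 0.05 and -0.12 in pairs 1 to 4, with a mean of -0.05 ± 1.47. None of these receptor genes was higher in the mutant in all 4 pairs.

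**Figure D4:**
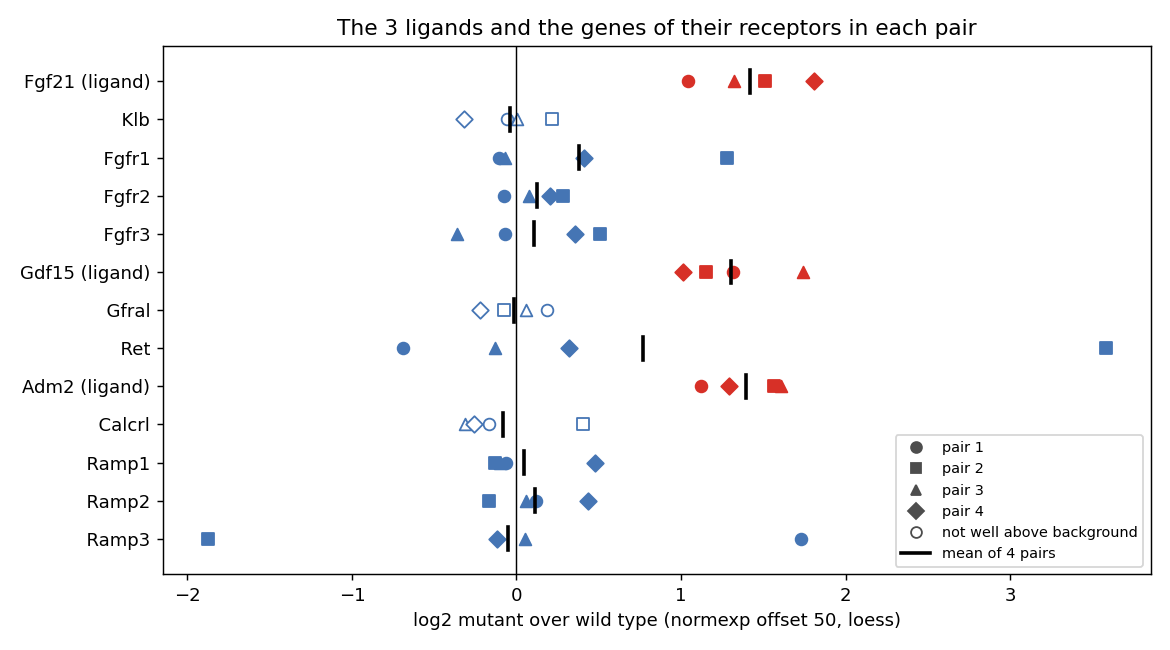
Log2 mutant over wild-type ratio (horizontal axis) in pairs 1 to 4 for the 3 ligands (red) and their receptor genes (blue), with open symbols for genes not well above background in any sample and black bars for the mean of 4 pairs. The ligand ratios lie between 1.01 and 1.80, while each receptor gene has pairs on both sides of 0. The ligands were chosen with these ratios known, so nothing is read from that contrast.

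Relatives of the 3 factors gave no call in limma either, and the 2 with an unadjusted p under 0.05 were Gfra2 and Calcr. Without pair 4, Gfra2 (limma adjusted p = 0.0354) and Calca (0.0407) passed. Of the other endocrine FGF genes and their partners, Fgf23, Kl and Fgfr4 were tested and 0 passed, with a median ratio of -0.05. The Fgf23 probe had mean log2 levels of 16.79 in mutants and 16.78 in wild type, close to the neuron marker Snap25 (16.71 and 16.79). Whether that probe measured Fgf23 RNA was not tested. Kl, which encodes the klotho co-receptor of FGF23, had -0.26 ± 0.65 and Fgfr4 had -0.05 ± 0.24. Of the calcitonin peptide family, the adrenomedullin gene Adm, the CGRP gene Calca and the calcitonin receptor gene Calcr were tested and 0 passed. Calcr had 0.69 ± 1.26 and Calca 0.66 ± 2.11, the latter with -1.29, 3.62, -0.24 and 0.53 in pairs 1 to 4. Of 8 listed ligands and receptors of the GDNF family, which signal through RET as GFRAL does, 6 were tested and 0 passed. Gfra2 had -0.63 ± 0.46, and the ligand gene Nrtn -0.23 ± 0.42.

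Other secreted factors linked to stress were compared with the 3 genes in the same fit. Of 12 listed, 11 were tested and 0 passed in limma. At an unadjusted limma p under 0.05 there were 2, against 6.05% of all tested probes. The median ratio of the 11 was 0.03, against 0.00483 over all tested probes. The median of the 3 described genes was 1.40, but they were chosen with this contrast known, so nothing is read from the difference. Stc2, which encodes stanniocalcin 2 and is induced through ATF4, had 0.38, 0.73, 0.39 and 0.38 in pairs 1 to 4. It was the 1 gene of this list (9.09%) that was higher in all 4 pairs, against 6.05% of all tested probes. Stc2 was well above background in 4 mutants and 2 wild-type mice, so it entered the tested probes through the mutants alone. Inhbe, which encodes an activin subunit, was the 1 gene lower in all 4 pairs, with -0.06, -0.56, -0.71 and -0.09. It was well above background in 2 of 4 mutants and 4 of 4 wild-type mice, so it entered through wild type alone.

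Of 31 tested genes listed as ATF4 regulators and targets, 29 (93.5%) had a mean ratio above 0 and 19 (61.3%) were higher in the mutant in all 4 pairs, against 51.2% and 6.05% of all tested probes. This list too was drawn up with results of these samples known, so its count is not independent evidence of its direction. In limma 1 member rose, the pseudokinase gene Trib3 (log2 2.01 ± 0.53, adjusted p = 0.0364), and 0 fell, while 20 of the 31 had an unadjusted p under 0.05, against 6.05% of all tested probes. Among the alternatives the number that rose ranged from 0 to 11. The 11 came without pair 4, a fit in which 933 probes passed. Trib3 did not pass without pair 1 (limma adjusted p = 0.893) or without pair 3 (1). Nor did it pass with a normexp offset of 10 (0.0706), the scanner software's ratio (0.206), the authors' table (0.248), no dye term (0.223) or separate channels with no replicate block. With no dye term the 1 gene that rose was Chac1. After Trib3, the next by size were the cationic amino acid transporter gene Slc7a3 (1.55 ± 0.52), the glutathione-degrading enzyme gene Chac1 (1.54 ± 0.08) and the mitochondrial folate enzyme gene Mthfd2 (1.18 ± 0.53). At the other end were the amino acid transporter gene Slc7a5 (-0.13 ± 0.46) and the cystine transporter gene Slc7a11 (-0.01 ± 0.49).

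The median of the ATF4 list was 0.58, 0.54, 0.81 and 0.52 in pairs 1 to 4. Pair 3 was highest in that median, as it was for Gdf15 and Adm2, while Fgf21 was highest in pair 4.

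Factors other than ATF4 are known to act on these genes, PPAR alpha on Fgf21 in liver and p53 on Gdf15. None of their listed targets, nor of the FGF-induced genes, had an unadjusted limma p under 0.05, against 6.05% of all tested probes. In lists this short, none is near that share. The part of these factors in the ratios of the 3 genes was not tested. Of 11 tested p53 targets 0 passed, with a median ratio of -0.01. Trp53inp1 had 0.30 ± 0.27 and Bbc3 0.27 ± 0.85, the largest of that list in either direction. Of 10 tested PPAR alpha genes 0 passed, with a median of 0.05. The lipid droplet gene Plin2 had 0.37 ± 0.84. Of 10 genes that FGF receptor signalling is known to induce 0 passed, with a median of -0.08, and their pair medians were 0.36, -0.92, 0.37 and -0.20. Egr1 had -0.80 ± 2.14 and Dusp6 -0.55 ± 1.68, both set by pair 2 with -3.81 and -2.99. Without that pair the limma estimate of Dusp6, dye term included, was 0.12. Without pair 4, Egr1 (limma adjusted p = 0.0217), Dusp6 (0.0192) and Plin2 (0.0439) passed.

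**Figure D5:**
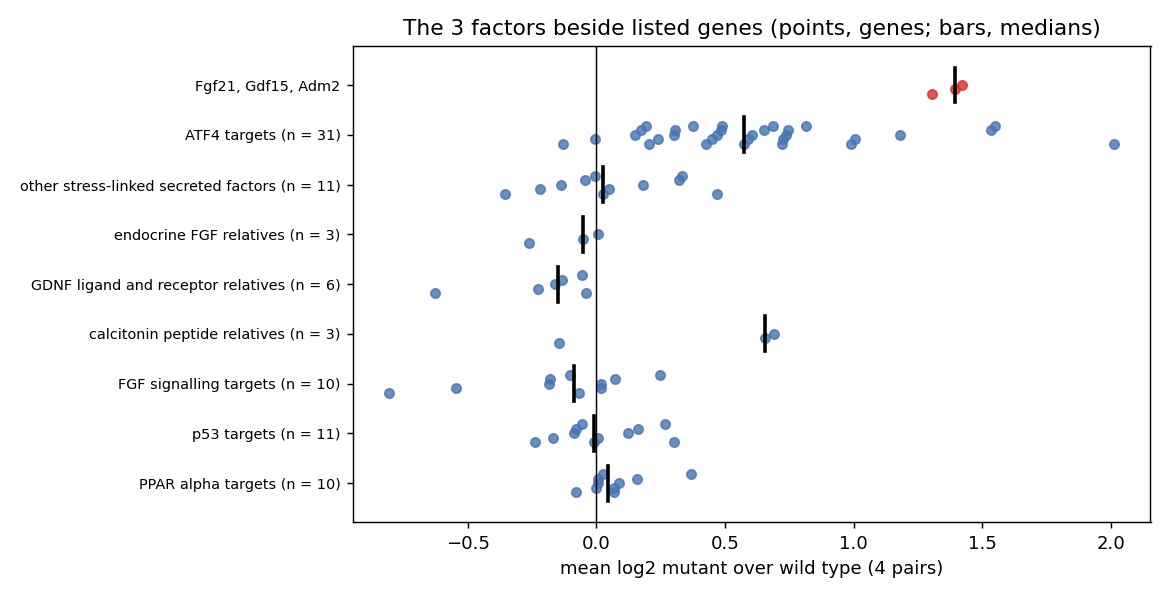
Mean log2 mutant over wild-type ratio over 4 pairs (horizontal axis) of each tested gene in 8 lists (blue points) beside Fgf21, Gdf15 and Adm2 (red points), with black bars for medians. The list medians are 0.58 for ATF4 targets, 0.66 for the 3 calcitonin relatives and between -0.15 and 0.05 for the other lists, against 1.40 for the 3 factors. The 3 factors were chosen with this contrast known, so nothing is read from their distance to the lists.

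The named genes whose 4 ratios lay nearest to those of each factor were found by the root-mean-square difference over the 4 pairs, a measure that uses the contrast of the choice and is given without a test. Chac1 was the nearest gene to Adm2 (0.198) and to Fgf21 (0.268) and the second nearest to Gdf15 (0.363). The nearest to Gdf15 was the collagen receptor gene Ddr2 (0.261), with ratios of 1.76, 0.92, 1.68 and 0.88 in pairs 1 to 4. After Chac1, Adm2 was nearest to Slc7a3 (0.413) and Mthfd2 (0.436), and Slc7a3 was also the next for Gdf15 (0.417). Fgf21 was next to the cerebellar synapse gene Cbln1 (0.459) and to Gm2694 (0.487), which had 0.94 ± 0.31. Between the factors themselves the difference was 0.277 for Adm2 and Gdf15, 0.297 for Adm2 and Fgf21 and 0.504 for Fgf21 and Gdf15.

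Markers of brain regions and of other cells are given beside these ratios. Of 9 tested cerebellar markers all had a mean ratio above 0, against 51.2% of all tested probes. In 8 of them (88.9%) the mutant exceeded the wild type in every pair, against 6.05% of all tested probes. The median of the mean ratios of these markers was 1.06, and this value and the 88.9% were larger than those of the ATF4 list. Their medians were 0.63, 0.82, 0.78 and 1.91 in pairs 1 to 4, with Gabra6 at 1.56 ± 2.14 and Cbln1 at 1.25 ± 0.72. Their summed intensity ranged from 26570 to 323400 in mutants and from 10710 to 222200 in wild type. Of 9 tested hypothalamic and pituitary markers 8 (88.9%) were above 0, against 51.2% of all tested probes. The medians of this list were -0.10, 0.95, 0.16 and 1.92. Pmch, which encodes a hypothalamic peptide precursor, had 4.88, 0.95, -1.16 and 4.96, and Hcrt, which encodes another, had 2.56, 0.66, -0.01 and 2.74. Other genes of the list, named after their values were seen, had another order of pairs. The oxytocin gene Oxt had 0.69, 0.71, 2.25 and 2.15, and the vasopressin gene Avp 1.48, -0.15, 1.99 and 2.30. The pituitary hormone gene Prl had -2.28, 1.14, 2.33 and -0.83, with a mean of 0.09. The pituitary hormone gene Gh had -1.73, 0.34, 1.62 and -0.41, with a mean of -0.05. The sums of the list were 10040 to 132500 in mutants and 3182 to 26170 in wild type. No gene of either list passed in limma over all pairs, while 7 of 9 cerebellar and 5 of 9 hypothalamic genes had an unadjusted p under 0.05, against 6.05% of all tested probes. Without pair 2 the genes Gabra6, Cbln3, Pcp2 and Avp passed, and without pair 4 Cbln1, Zic1 and Trh. Cbln3, well above background in 3 mutants and 2 wild-type mice, entered the tested probes through the mutants alone. The part of these regions in the ratios of the 3 factors was not tested.

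Choroid plexus markers had medians of 0.19, 1.11, -0.84 and -0.89 in pairs 1 to 4, with 1 of 8 above 0 in the mean and sums of 6705 to 31080 in mutants and 3933 to 85870 in wild type. Their part in the ratios of the 3 factors was not tested either. Among blood cell markers the neutrophil genes S100a9 (1.66 ± 0.85) and S100a8 (1.49 ± 0.75) were higher in the mutant in all 4 pairs. Their unadjusted limma p was 0.00262 and 0.00261, and S100a9 passed without pair 4 (limma adjusted p = 0.0462). The others tested were the red cell genes Alas2 and globins. These set the median of the 7, -0.06, and the overlapping sums, 209700 to 579400 in mutants and 266400 to 534500 in wild type. Median and sums thus do not describe the neutrophil genes, whose part in the ratios of the 3 factors was not tested. Microglia and endothelial lists had medians of -0.12 and 0.13. Of 6 listed liver markers 2, Alb and Fgb, were well above background in 0 of 8 samples, and the 3 tested had a median of -0.06.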

How the data were processed

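Total RNA from brain of 8 mice was hybridised to 4 Agilent 2-colour arrays. The scans were read out by Feature Extraction 10.7.3.1, as the submitters' processing notes and the headers state. Used here are the deposited intensity columns that give, uncorrected, the median over a spot's pixels and over the surrounding background, per the file headers. The deposited processed intensity and the log10 ratio of Cy5 over Cy3 had been background-subtracted and dye-normalized, per the file headers. The deposited marks (other values, 0 or 1) flag spots well above background, saturated or outlying, per the file headers. A further set of log2 values, unstated in scale, came from the authors. Over 16574 brighter probes it followed the quantile-normalized log2 processed signal minus each probe's median, with r of at least 0.999996. Its column medians were -0.0274, 0.020, -0.0143 and -0.00231 in mutants 1 to 4 and -0.0497, 0.0363, -0.00523 and 0.0346 in wild-type mice 1 to 4. Dim probes, the 3 members included, were not compared.

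From the files, spot medians were corrected with normexp (offset 50) over every spot, and loess within arrays normalized the log2 ratios, with control spots at weight 0. Outlier spots were left out and spots of 1 probe averaged. Levels per channel followed Aquantile normalization. A probe was tested if well above background in at least 3 of 4 samples of either genotype. This held for 33315 of 55681 probes, of which 33307 had a value on every array. Probes were named by accession through the RefSeq gene list for GRCm38.p6, which named 27509 of them. For genes besides the members, the brightest of the tested probes stands for the gene. The model, run in limma 3.58.1 under R 4.3.3, had a genotype term signed by the mutant's dye plus a term for dye, and p-values were adjusted by Benjamini-Hochberg over all tested probes. The fits were tested on simulated data. Same-numbered mice shared an array, so the ratio makes the pair a block. Their deviations from the genotype means correlated at 0.791, 0.314, 0.494 and 0.740 in pairs 1 to 4, a check that the shared spots favour.

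The 3 members and all gene lists were chosen with earlier results of these data known, so the members' mutant over wild-type values are a description without a test. Besides members and receptor genes, the text names the genes whose 4 ratios lay nearest to a member's, the 4 largest and 2 smallest mean ratios of the ATF4 list and the 2 largest of each other list, of which 1 is not reported here. For marker lists that moved with genotype the leading genes are named. Further marker genes were named after their values were seen. Genes of other marker lists are named in the closing sections where 1 pair stood apart or the sign changed. Alternatives were normexp with offset 10, no background correction, median centring, the scanner software's ratio, the authors' table, no filter, no dye term, separate channels with and without the array as a random block, and leaving out each pair.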

Additional observations from a re-analysis of the deposited data

Results flagged for a closer look

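In 57 sets of 4 values (the levels of the 3 factors by genotype and the pair ratios of every named gene), 7 had 1 value far from the other 3 by Dixon's criterion for 4 values (the gap to the nearest value over the range), and chance alone gives such a gap in about 1 of 20 sets. None belonged to Fgf21, Gdf15 or Adm2. In 4 of them pair 2 stood apart. The gap over range was 0.868 for Mthfd2, with log2 ratios of 0.85, 1.97, 0.99 and 0.91 in pairs 1 to 4. It was 0.952 for Stc2, where pair 2 had 0.73 against 0.38 to 0.39. It was 0.902 for Nrtn, with 0.40 in pair 2 against -0.41, -0.49 and -0.40. It was 0.8295 for Plin2, with 1.61 in pair 2 against -0.05, -0.19 and 0.11. Pair 4 stood apart for Ramp1 (0.89), with 0.48 against -0.06, -0.13 and -0.10. Pair 1 stood apart for Cx3cr1 (0.975), with 0.27 against -0.44, -0.42 and -0.44. Pair 3 stood apart for Serpina1c (0.896), with -1.69 against -0.31, -0.15 and -0.26.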

How the results depend on the processing

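Fgf21, Gdf15 and Adm2 were higher in the mutant in all 13 alternatives. Their mean log2 ratios moved by more than 1 SD with a normexp offset of 10 (1.95, 1.71 and 1.87), from the authors' table (2.90, 2.78 and 2.52) and from the scanner's own ratio (3.00, 2.63 and 2.53). Leaving out each pair gave 1.35 to 1.49 for Fgf21, 1.20 to 1.41 for Gdf15 and 1.28 to 1.52 for Adm2. Ratios given here with a pair left out are limma estimates with the dye term, not plain means. They give more weight to the lone pair of a dye orientation. The female minus male difference of the ratio changed sign for Gdf15 with offset 10 (0.011), from the scanner's own ratio (0.80) and from the authors' table (1.10), and for Adm2 with those last settings (0.18 and 0.18). That of the level changed sign for Adm2 without replicate 2 (0.05) and without replicate 3 (0.15), the range over pairs left out being -0.45 to 0.15. No difference between sexes passed in any alternative, and adjusted p was at least 0.822. With a pair left out the genotype by sex fit had no residual degrees of freedom and was not run. The count of 3 probes past the genotype test (Pus1, Trib3 and a probe without a gene name) became 0 with offset 10, from the scanner's own ratio and from the authors' table. In separate channels it was 1 with no replicate block and 25 once arrays entered as random blocks, and leaving out each pair gave 0 to 933. For the ATF4 list the count of 1 became 0 with offset 10, the scanner's own ratio, the authors' table and no replicate block, 2 with no filter and 8 with arrays as random blocks, with 0 to 11 when each pair was left out. With no dye term it stayed at 1, but the gene was Chac1 and not Trib3. For receptor genes the count was 0 to 1. Of 624 ratios of other named genes under the alternatives, 564 kept their direction and side of the threshold, 13 no longer passed, 21 newly passed (15 of them without replicate 4) and 26 changed sign, all of genes that had not passed. With no background correction Slc7a11 was at 0.014, and with median centring Ramp1 was at -0.017 and Fgfr4 at 0.015. Over the pairs left out, the sign changed for Ret (-0.045 to 1.59), Ramp1 (-0.10 to 0.20), Ramp2 (-0.038 to 0.26), Ramp3 (-0.49 to 0.39), Slc7a11 (-0.27 to 0.25), Kl (-0.56 to 0.034), Fgfr4 (-0.16 to 0.057), Calca (-0.12 to 1.43), Dusp6 (-1.21 to 0.12) and Plin2 (-0.0049 to 0.74). Among markers it changed for Syt1 (-1.11 to 0.10), Clic6 (-0.21 to 0.91), Sostdc1 (-0.78 to 0.12), Adora2a (-0.72 to 0.23), Penk (-0.54 to 0.95), P2ry12 (-0.46 to 0.0069) and Apoa2 (-0.14 to 0.010). The causes were not tested. The Fgf21, Gdf15 and Adm2 spots of wild type were at most 1.85 times their background, which limits any fold, and 4 arrays limit the precision of every value. The genotype p-values measure the spread of the ratios over 4 pairs after the dye term, moderated by limma over all tested probes. Differences between mice, sections and arrays are not separated in that spread. Besides mouse number, array, dye and sex, nothing says how the samples were handled.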

Other observations

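Over all 55681 probes, 44 were well above background in all 4 mutants and in 1 wild-type mouse, the pattern of Fgf21, and 33 in all 4 wild-type mice and 1 mutant. The pattern of Adm2, 4 mutants and 2 wild-type mice, was that of 462 probes, and 295 probes had the reverse. The pattern of Gdf15, 4 mutants and 3 wild-type mice, was that of 953 probes, and 846 had the reverse.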
